A study of Mus musculus with 4 samples.

Results

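The secreted WNT antagonists are proteins released from cells that lower WNT signalling outside the cell. The set held 10 genes, namely Sfrp1, Sfrp2, Sfrp4, Frzb, Wif1, Dkk1, Dkk2, Dkk3, Sostdc1 and Notum, and was chosen by gene name, taking every array feature whose name in the files equalled one of them. All 10 were on the array, among 29924 gene names, with 11 features between them (2 for Sostdc1, 1 for each of the other genes). RNA came from ureters of wild-type NMRI embryos at E12.5, explanted and cultured for 18 h without serum, either with 10 µM IWP-2 or with DMSO, its solvent. IWP-2 is a small molecule that blocks Porcupine, the enzyme that puts a lipid on WNT proteins, so that they are not secreted. Each of 4 two-colour arrays set 1 pool of treated ureters against 1 pool of control ureters, the treated RNA being in the red channel on arrays 1 and 3 and in the green channel on arrays 2 and 4. NMRI is an outbred stock, sex was not determined, and the whole ureter went into each pool, so fewer cells of a type and less RNA per cell cannot be told apart.

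WNT proteins bind a Frizzled receptor and the co-receptor LRP5 or LRP6, which keeps beta-catenin from being degraded and lets it act with TCF and LEF factors on target genes. The antagonists act at different points before the receptor. SFRP proteins, Frzb (SFRP3) and WIF1 bind the WNT protein itself, DKK1, DKK2 and SOSTDC1 bind the LRP co-receptors, and NOTUM is a carboxylesterase that takes off the lipid that Porcupine adds. In the ureter, WNT proteins from the epithelium act on the mesenchyme around it, and several antagonist genes are known in other tissues as targets of the pathway they restrain. The comparison asked which of them depended on WNT secretion in this tissue within 18 h.

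Markers of both layers of the ureter were detected. The 7 mesenchyme markers looked at, Tbx18 and the collagens among them, and the 7 epithelium markers, Cdh1 and Epcam among them, were all well above background in both channels of every array. So were 6 of 6 nephron progenitor and 6 of 6 red blood cell markers, so detection alone does not identify the tissue. Between 75.1% and 80.0% of the 39429 gene features rose well above background per channel, the ratios of all genes correlated between arrays with r of 0.62 to 0.83, and no spot of a gene was saturated. The highest r were between arrays of the same dye order, 0.80 for arrays 1 and 3 and 0.83 for arrays 2 and 4. Pairs of unlike dye order had r of 0.62 to 0.74. All 4 arrays lay on 1 slide and were scanned together. The arrays were treated as 4 replicates. Because the fit held a term for dye order, the tests measure the spread between arrays of the same dye order, with variances moderated across genes. The SDs given with n = 4 also include the difference between dye orders, which the confidence intervals leave out. The paper's methods give n = 4 for this stage, while its figure legend names fewer pools. Whether any arrays shared a pool is not known. If some did, the spread covers fewer than 4 independent pairs of pools.

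RefSeq promoter windows of build GRCm38.p6 were at hand for 5 of the 10 genes (Dkk1, Dkk2, Sfrp2, Frzb and Wif1), each with 250 bases before the transcript start and 50 after it. The bases before the start are shown 5′ to 3′ on the gene's strand for Wif1 and Dkk2, which fell most, for Frzb, which rose most, and for Dkk1, which lies in the same family as Dkk2 and hardly moved. Capitals mark the TCF and LEF core CTTTGA, or TCAAAG where the core lies on the other strand.
Wif1, chr10:121033754-121034003, plus strand: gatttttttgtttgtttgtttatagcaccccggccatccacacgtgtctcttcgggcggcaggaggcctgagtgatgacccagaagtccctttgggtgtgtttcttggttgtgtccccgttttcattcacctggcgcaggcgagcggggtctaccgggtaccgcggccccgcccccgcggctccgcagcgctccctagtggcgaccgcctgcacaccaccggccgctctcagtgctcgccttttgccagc
Dkk2, chr3:132085042-132085291, plus strand: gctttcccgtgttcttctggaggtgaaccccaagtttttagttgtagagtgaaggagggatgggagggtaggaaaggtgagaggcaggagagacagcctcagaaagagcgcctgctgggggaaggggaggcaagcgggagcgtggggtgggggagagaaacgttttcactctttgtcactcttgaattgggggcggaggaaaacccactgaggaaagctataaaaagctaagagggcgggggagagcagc
Frzb, chr2:80447397-80447646, minus strand: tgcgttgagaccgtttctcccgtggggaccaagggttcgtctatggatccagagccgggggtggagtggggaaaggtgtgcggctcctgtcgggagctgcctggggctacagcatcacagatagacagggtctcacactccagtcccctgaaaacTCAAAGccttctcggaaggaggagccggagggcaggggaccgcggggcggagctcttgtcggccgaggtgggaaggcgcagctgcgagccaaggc
Dkk1, chr19:30549497-30549746, minus strand: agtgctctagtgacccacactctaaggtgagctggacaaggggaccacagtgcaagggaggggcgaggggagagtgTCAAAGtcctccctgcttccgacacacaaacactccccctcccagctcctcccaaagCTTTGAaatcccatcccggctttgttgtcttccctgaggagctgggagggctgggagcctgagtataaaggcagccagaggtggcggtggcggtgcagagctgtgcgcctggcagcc
The core was searched on both strands and was found 2 times before the start of Dkk1, beginning 174 and 117 bases upstream, and once before that of Frzb, 95 bases upstream. None was in the Wif1, Dkk2 or Sfrp2 windows. The Sfrp2 window, at chr3:83766071-83766320, lay inside the RefSeq gene, which starts at 83765750. Sequence before that start was therefore not searched. The Dkk2 window ended at 132085291, a little past the gene start at 132085266. None of the matches went on to CTTTGAT, which contains the core and was the only longer form searched. Of all 32851 windows in the table, 16.0% held CTTTGA and 3.73% held CTTTGAT. A match is a run of letters in this window only, and these windows leave out more distant sequence.

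Of the 10 genes, 6 fell with IWP-2, 2 rose and 2 did not pass the test (limma, adjusted p under 0.05 over all 22461 genes tested). The same test called 15% of all genes lower and 18.1% higher. Wif1 and Dkk2 fell by more than 2-fold, which 0.735% of all genes did, and Dkk3 fell by nearly that much. Notum, Sostdc1 and Dkk1 fell by less, and Frzb and Sfrp1 rose. All 10 genes were well above background in all 8 channels, so none entered through 1 condition only. The median log2 change over the 10 genes was -0.36, beside 0.00 over all genes tested. The 6 genes that fell were lower on 4 of 4 arrays each, and the 2 that rose were higher on 4 of 4. How many of all called genes kept 1 direction on 4 of 4 arrays was not counted.

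**Figure D1:**
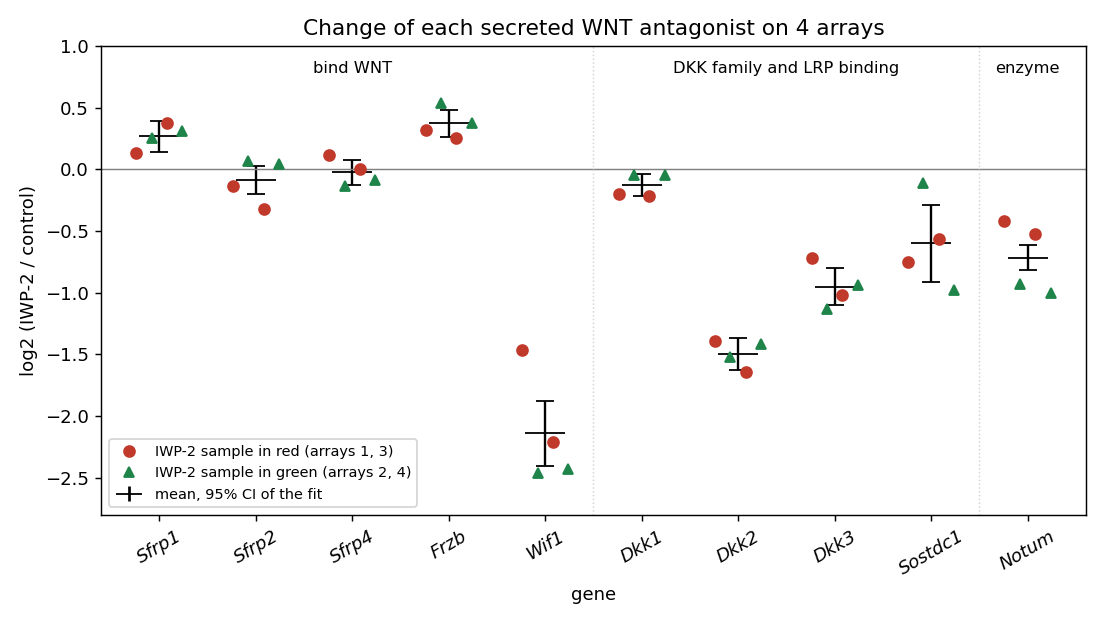
Log2 ratio of IWP-2 over control for each antagonist gene (y axis) on the 4 arrays, with the genes on the x axis grouped by mode of action; circles are arrays with the treated RNA in red, triangles those with it in green, and bars give the mean with the 95% confidence interval of the limma fit. Wif1 lay lowest at a mean of -2.14 and Frzb highest at 0.37, and the circles and triangles did not overlap for Sfrp2, Sfrp4, Frzb, Wif1, Dkk1 and Notum.

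Wif1 codes for WNT inhibitory factor 1, which binds WNT proteins through its WIF domain. Its control intensity was 945, 765, 1079 and 1254 on arrays 1 to 4, and its intensity with IWP-2 on the same arrays was 332, 125, 223 and 220. Every treated value lay below every control value. Its log2 ratios were -1.47, -2.47, -2.21 and -2.43, so the fall was smallest on array 1. The mean was -2.14 ± 0.46 (SD, n = 4), a level 4.41-fold lower, with a 95% confidence interval of -2.41 to -1.88 and an adjusted p of 7.70e-05 (limma). Of all genes tested, 18 had a lower change than Wif1. The mean was -1.84 on the arrays with treated RNA in red and -2.45 on those with it in green. Without array 1 it was -2.33, and without array 3 it was -1.96. The feature lay at chr10:120537079-120537138 in build mm9, which the array files use for all feature positions given here.

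Of the other genes of the WNT-binding group, Sfrp1 and Frzb were higher and Sfrp2 and Sfrp4 did not pass. Sfrp1 codes for a secreted Frizzled-related protein that binds WNT through a domain like that of the receptor. Its control intensity was 1370, 1334, 1683 and 1711 on arrays 1 to 4, and 1522, 1596, 2213 and 2140 with IWP-2. It was higher with IWP-2 on each array, although the ranges of the groups overlapped, since arrays 3 and 4 were brighter in both channels. The log2 ratios were 0.13, 0.25, 0.38 and 0.31, with a mean of 0.27 ± 0.11 (SD, n = 4) and an adjusted p of 0.0104 (limma).

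Frzb, the third of the Frizzled-related proteins, is best known as an inhibitor made by cartilage. It had control intensities of 199.7, 206, 288 and 305 and IWP-2 intensities of 257, 309, 356 and 406 on arrays 1 to 4. The treated channel was again the brighter on each array, with overlapping ranges across arrays. On the log2 scale its ratios were 0.32, 0.54, 0.26 and 0.37, a mean of 0.37 ± 0.12 (SD, n = 4), which is 1.29-fold, with an adjusted p of 0.00196 (limma). The mean was 0.29 with treated RNA in red and 0.45 with it in green. Of all genes tested, 894, or 3.98%, had a higher change. The features lay at chr8:24559438-24559497 for Sfrp1 and chr2:80252582-80252641 for Frzb.

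Markers of several cell types were higher beside these 2 genes. The 7 epithelium markers were all higher, by 0.24 to 0.34 on the log2 scale, and their summed intensity was 40882 to 54041 in the control channels and 46388 to 67147 in the IWP-2 channels. Of the 6 endothelium markers 4 were higher and none was lower, with a summed intensity of 11949 to 16825 in controls and 13520 to 19284 with IWP-2. Of the 6 red blood cell markers 5 were higher, with sums of 70821 to 111271 and 94515 to 131997. The sums overlapped between the groups in each list. Of 6 nephric duct markers 5 were higher, with Calb1 at 0.62 and Gata3 at 0.56, and their sum was 5196 to 8576 in controls and 7878 to 11518 with IWP-2. The part of these in the rises of Sfrp1 and Frzb was not tested.

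Sfrp2 and Sfrp4 did not pass the test. Sfrp2 had control intensities of 13952, 14158, 22731 and 19865 and IWP-2 intensities of 13130, 14552, 18286 and 20690. Its log2 ratios were -0.13, 0.07, -0.32 and 0.05, so it was lower on both arrays with treated RNA in red and higher on both with it in green. The mean was -0.09 ± 0.18 (SD, n = 4), with a 95% confidence interval of -0.20 to 0.02 and an adjusted p of 0.199 (limma). Sfrp4 was dim, at 25.5, 24.8, 26.8 and 43.2 in controls and 29.4, 20.9, 26.8 and 39.8 with IWP-2. Its log2 ratios were 0.12, -0.13, 0.00 and -0.09, a mean of -0.03 ± 0.11 (SD, n = 4), with an adjusted p of 0.666 and an interval of -0.13 to 0.07.

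Changes within the SFRP family were compared on the same arrays. The log2 change of Sfrp2 lay below that of Frzb on 4 of 4 arrays, by 0.33 to 0.58, and the change of Sfrp1 lay above that of Sfrp2 on 4 of 4 arrays, by 0.18 to 0.70. Sfrp1 and Frzb were not separated, as Sfrp1 lay below Frzb on 3 arrays and above it on 1. The feature of Sfrp2 lay at chr3:83577864-83577923 and that of Sfrp4 at chr13:19724488-19724547.

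**Figure D2:**
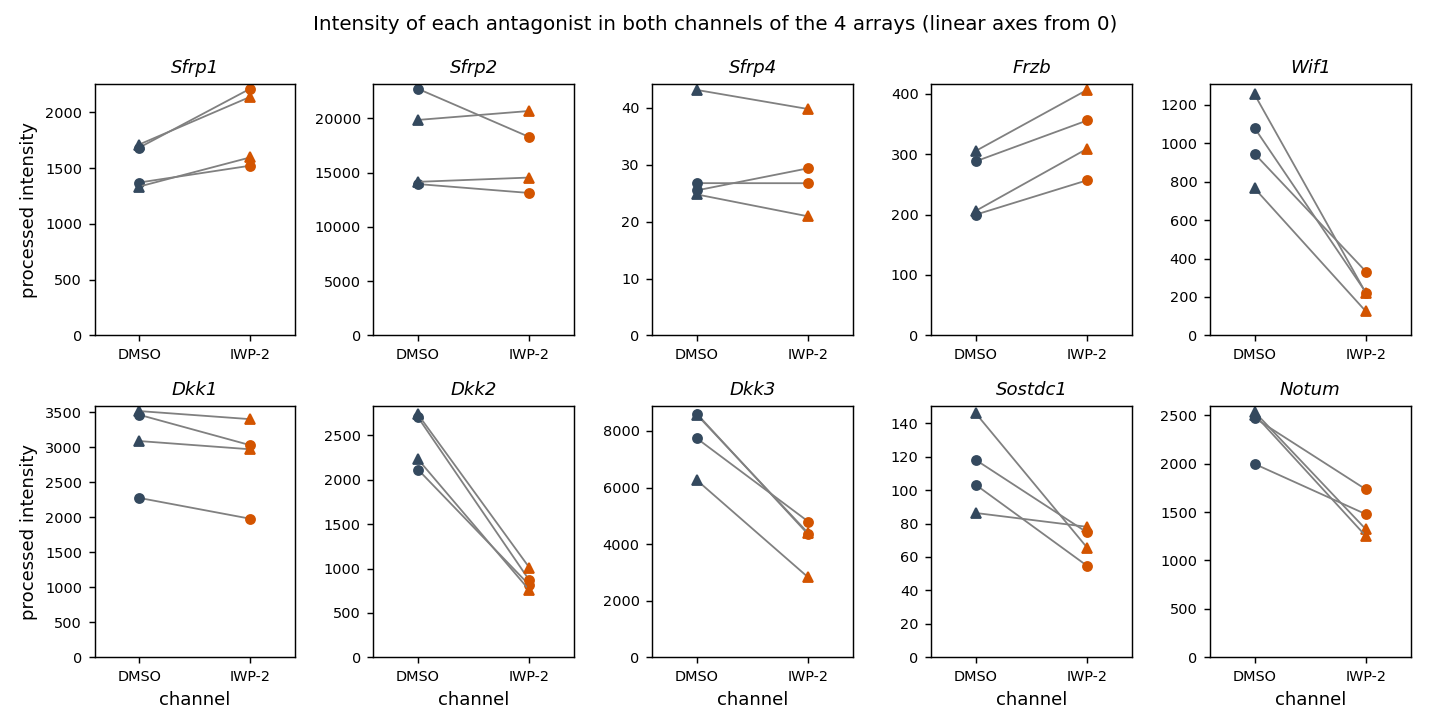
Processed intensity (y axis, linear from 0, arbitrary scanner units, 1 scale per gene) of each antagonist in the DMSO and IWP-2 channels (x axis) of the 4 arrays; a line joins the channels of 1 array, circles are arrays with treated RNA in red and triangles those with it in green. The channels did not overlap for Wif1, Dkk2, Dkk3, Sostdc1 and Notum, and overlapped for the other genes. The share of all genes without overlap was not counted.

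The DKK family split by member. DKK1 and DKK2 bind LRP5 and LRP6 together with the Kremen receptors, while DKK3 is a divergent member whose action on WNT signalling differs between settings. Dkk2 had control intensities of 2113, 2229, 2700 and 2733 on arrays 1 to 4 and IWP-2 intensities of 813, 757, 868 and 1010. All treated values were below all control values. Its log2 ratios were -1.40, -1.52, -1.65 and -1.42, the least spread relative to its size of the genes that fell, and the adjusted p was 2.36e-05 (limma). That spread was ± 0.11 (SD, n = 4) around a level 2.82-fold lower. Of the genes tested 59 had a lower change, and the dye order made little difference, with -1.52 in red and -1.47 in green. The feature lay at chr3:131842357-131842416.

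Dkk3 had control intensities of 7737, 6260, 8605 and 8572 and IWP-2 intensities of 4801, 2828, 4347 and 4390. The groups did not overlap, and the fall was largest on array 2. The log2 ratios were -0.72, -1.13, -1.02 and -0.94, a mean of -0.95 ± 0.18 (SD, n = 4) or 1.94-fold, with a 95% confidence interval of -1.10 to -0.80 and an adjusted p of 2.11e-04 (limma). Its feature lay at chr7:119259556-119259615, and 187 genes had a lower change.

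Dkk1 behaved otherwise. Its control intensities were 2275, 3086, 3461 and 3513, and those with IWP-2 were 1977, 2968, 3026 and 3398. The treated channel was dimmer on each array, by less than the arrays differed among themselves, and the groups overlapped. As log2 ratios the differences were -0.20, -0.04, -0.22 and -0.04, a mean of -0.13 ± 0.09 (SD, n = 4), with a 95% confidence interval of -0.22 to -0.03. The adjusted p was 0.0446 (limma), just past the threshold, and it lay above the threshold under 8 of the 15 other settings tried, among them each fit that left out 1 array. The mean was -0.21 with treated RNA in red and -0.04 with it in green. The feature lay at chr19:30621424-30621483.

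On each of the 4 arrays Dkk2 fell most, Dkk3 less and Dkk1 least. The change of Dkk1 lay above that of Dkk2 by 1.37 ± 0.12 on the log2 scale (SD, n = 4, range 1.20 to 1.48) and above that of Dkk3 by 0.83 ± 0.24 (range 0.52 to 1.09). Dkk2 lay below Dkk3 by 0.39 to 0.68. These differences are ratios within arrays and say only that the genes changed unequally.

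Sostdc1 codes for sclerostin domain-containing 1, also called Wise or ectodin, which binds LRP co-receptors and also BMP ligands. Its brighter feature, at chr12:37044532-37044591, had control intensities of 103, 86.3, 118 and 146 and IWP-2 intensities of 54.7, 78.0, 74.7 and 65.6. The groups did not overlap, but on array 2 the channels were close. The log2 ratios were -0.75, -0.11, -0.57 and -0.98, a mean of -0.60 ± 0.37 (SD, n = 4), which is 1.52-fold, with a 95% confidence interval of -0.91 to -0.29 and an adjusted p of 0.0146 (limma). The other feature, at chr12:37044197-37044256, was dimmer and gave ratios of -0.55, -0.27, -0.39 and -0.81. Both features were lower on 4 of 4 arrays, fell least on array 2 and most on array 4. The second gave an adjusted p of 0.0057 in a limma fit across all features. Leaving out array 2 moved the mean of the gene to -0.82, and leaving out array 4 to -0.38.

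Notum had control intensities of 1996, 2533, 2470 and 2505 and IWP-2 intensities of 1477, 1321, 1733 and 1251. All treated values were below all control values. The log2 ratios were -0.42, -0.93, -0.52 and -1.004, which fell into pairs by dye order, with a mean of -0.47 where the treated RNA was red and -0.97 where it was green. The fall was thus present in both orders and differed in size between them. The spread of ± 0.29 (SD, n = 4) was mostly this dye difference, which the fit took into a term of its own, leaving a 95% confidence interval of -0.82 to -0.62 and an adjusted p of 1.25e-04 (limma). Over all genes the dye term passed the adjusted threshold for 0 of 22461 (limma, lowest adjusted p 0.122, with 4231 at an unadjusted p under 0.05). The Notum feature lay on the minus strand at chr11:120515209-120515268. A feature for Notumos, named for the opposite strand of Notum, lay 7742 bases away on the plus strand at chr11:120523011-120523070. It was well above background in 4 of 4 control channels and in 0 of 4 IWP-2 channels, at 76.1, 93.1, 112 and 123 in controls and 4.18, 2.82, 4.54 and 3.75 with IWP-2. Notumos therefore has a bound only, a log2 change of -2.32 or lower, set by the lowest treated signal well above background.

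**Figure D3:**
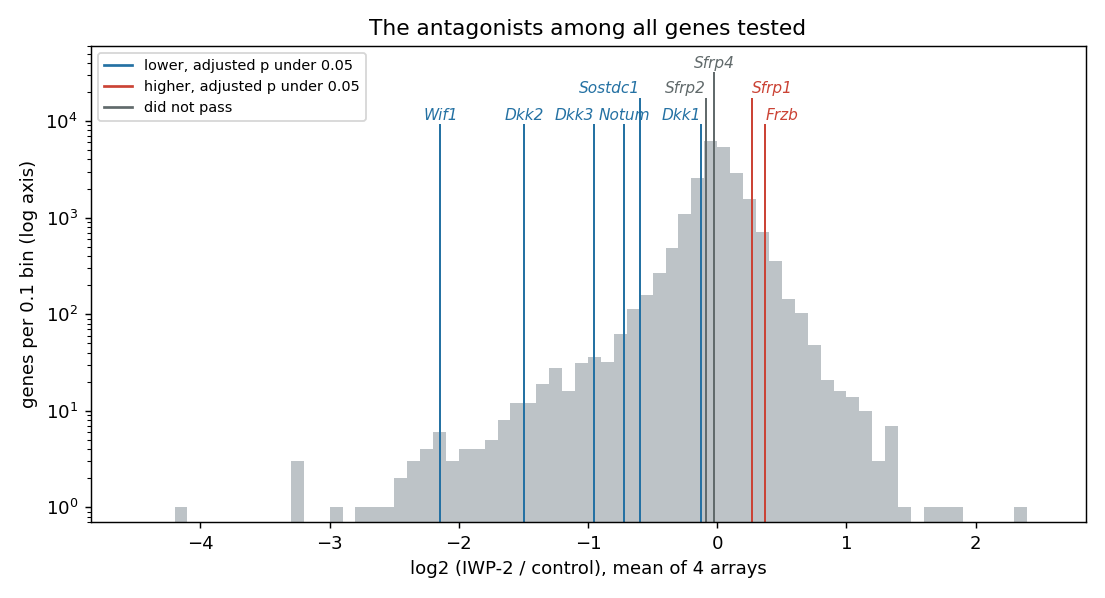
Number of genes (y axis, log scale) per 0.1 bin of the mean log2 ratio of IWP-2 over control (x axis) for all 22461 genes tested, with a line at each antagonist coloured by its call. Wif1 and Dkk2 stood in the lower tail, with 18 and 59 genes below them, and Sfrp4, Sfrp2 and Dkk1 stood in the centre.

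A stricter view came from the cut-offs the study used, more than 2-fold change at intensities above 100, applied here to the brighter channel and to every one of the 4 arrays. Wif1 and Dkk2 passed it as lower, no antagonist passed it as higher, and 0.348% of the gene names on the array passed it as lower. With a limit of 1.5-fold Dkk3 passed too.

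Other genes that restrain WNT signalling were set beside the antagonists. Of 16 further inhibitors 13 were tested, and Dkk4, Sost and Cer1 were not, as they were not well above background in either group. Of the 13, 6 were lower, 2 were higher and 5 did not pass, with a median log2 change of -0.14. Apcdd1, a membrane protein that binds WNT and LRP5, was lower by the most, with ratios of -1.59, -1.93, -1.60 and -1.76. Shisa2, which holds Frizzled receptors in the endoplasmic reticulum, was lower at -0.92, -0.95, -1.17 and -0.90. Sfrp5, the remaining member of the SFRP family, was lower on 4 of 4 arrays at -0.30, -0.79, -0.44 and -0.54, with an adjusted p of 0.00119 (limma). The glypicans Gpc3 and Gpc4 were lower at means of -0.43 and -0.29. Draxin, a guidance protein that also binds LRP6, was lower at -0.21, most of it from -0.51 on array 2. A second, dimmer Draxin feature had a mean of -0.07, with 0.04 on array 1. That feature did not pass in a limma fit across all features (adjusted p 0.305). Sfrp5 and the brighter Draxin feature were dim too, at 31.1 to 45.1 and 25.3 to 39.3 in controls.

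Kremen2, which binds DKK1 and DKK2 and with them removes LRP6 from the surface, was higher at 0.37, 0.34, 0.49 and 0.33, with an adjusted p of 0.00128 (limma). It was dim, at 17.9 to 38.1 in controls and 29.0 to 62.3 with IWP-2. Among genes with a mean processed signal over 100, 4 further inhibitors were lower and 1 was higher. Lrp4, which binds sclerostin and related proteins, was higher at a mean of 0.23, though it was lower on array 3 at -0.14. Kremen1, Dkkl1, Igfbp4, Shisa3 and Tpbg did not pass, with means between -0.14 and 0.05. Lrp5 and Lrp6, the co-receptors that DKK1, DKK2 and SOSTDC1 bind, were picked after their values were seen and had changes of 0.02 and -0.01, which did not pass the test.

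**Figure D4:**
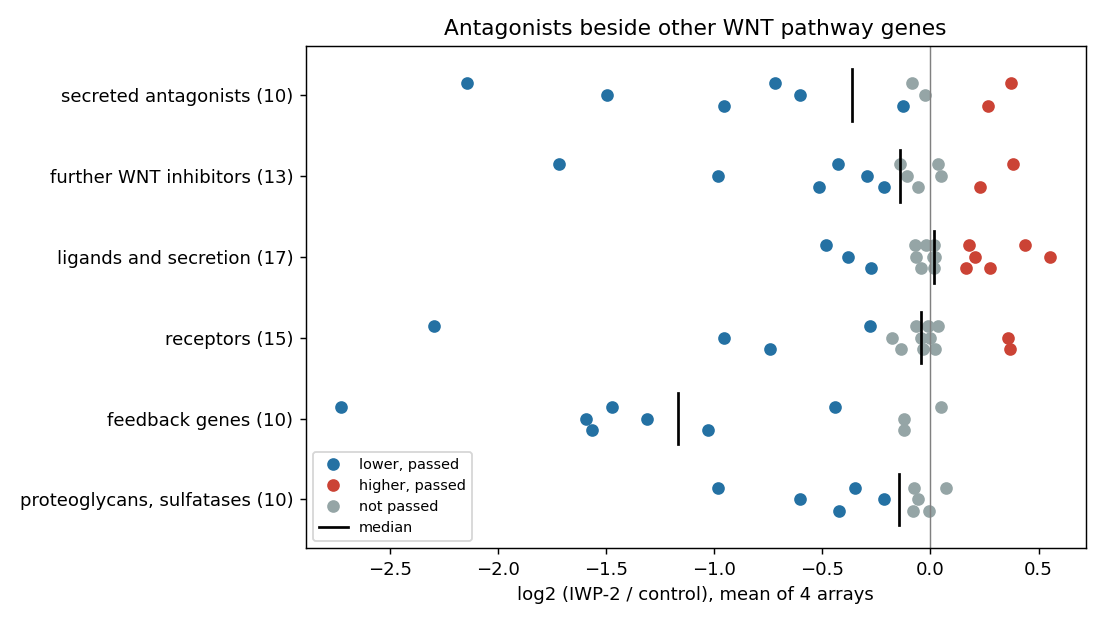
Mean log2 ratio of IWP-2 over control (x axis) of each gene tested in 6 lists of WNT pathway genes (rows, number of genes in brackets), coloured by call, with a black line at the median. The antagonists spanned -2.14 to 0.37, and the feedback genes had the lowest median at -1.17.

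Other parts of the pathway gave the range in which the antagonists moved. Of 10 intracellular or membrane feedback genes 7 were lower and none was higher, with Sp5 at -2.72, Nkd1 at -1.59, Axin2 at -1.56 and Lef1 at -1.47. The falls of Wif1 and Dkk2 lay within this range. Of 17 genes for WNT ligands and their secretion 3 were lower, Wnt2 at -0.48, Wnt5a at -0.38 and Wnt4 at -0.27, and 6 were higher, led by Wnt11 at 0.55 and Wnt9a at 0.44. Of 15 receptor genes 4 were lower, led by Fzd10 at -2.30 and Fzd9 at -0.96, and 2 were higher, Fzd8 at 0.37 and Fzd6 at 0.36. Of 10 genes for proteoglycans and their sulfatases, which hold WNT at the cell surface, 5 were lower and none was higher, with Sdc2 at -0.98 and Sulf1 at -0.60.

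Markers that fell with the antagonists were looked at as well. All 6 smooth muscle markers were lower, led by Cnn1 at -0.98, Actg2 at -0.87 and Tagln at -0.73, and their summed intensity was 7253 to 13678 in controls and 4610 to 7777 with IWP-2, ranges that overlapped. Of the 7 mesenchyme markers, Tbx18 was lower at -0.74, Pdgfrb was higher at 0.80 and 5 did not pass, with sums of 110222 to 156879 in controls and 121419 to 156603 with IWP-2. Of 6 nephron progenitor markers 5 were higher, led by Six2 at 1.14, and Crym was lower at -0.96, with sums of 11243 to 14125 and 12189 to 16070. The part of these markers in the falls of Wif1, Dkk2, Dkk3, Notum and Sostdc1 was not tested.

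**Figure D5:**
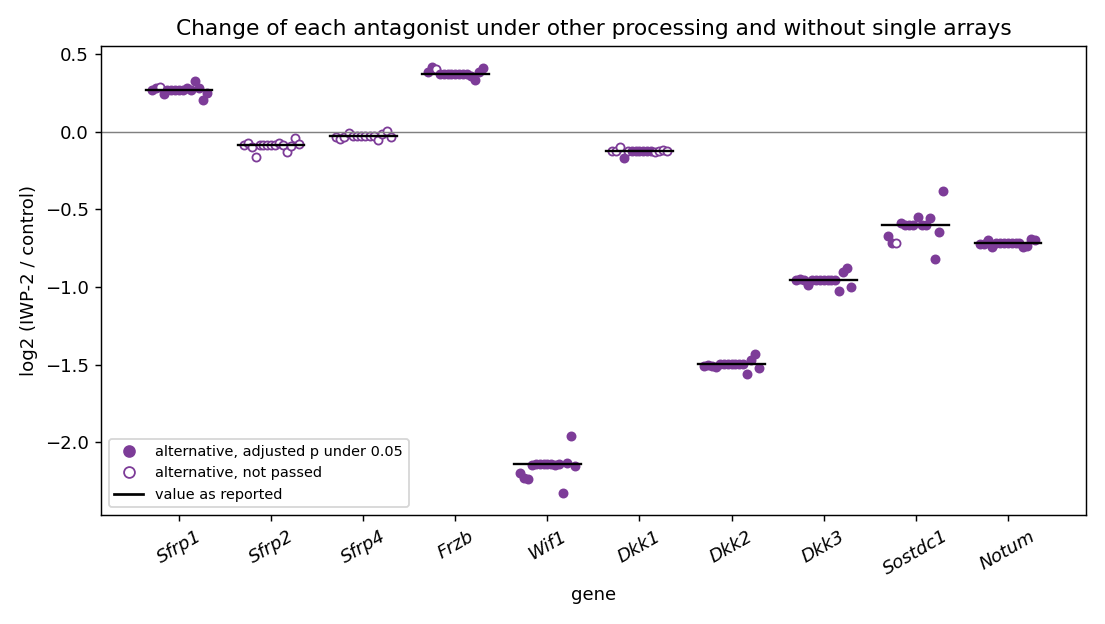
Log2 ratio of IWP-2 over control (y axis) of each antagonist (x axis) as reported (black line) and under up to 15 other settings (points), filled where the adjusted p was under 0.05 and open where it was not. Wif1, Dkk2, Dkk3 and Notum were filled under all 15, and Dkk1 was open under 8.

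Wif1, Dkk2, Dkk3 and Notum passed as lower under each of the 15 other settings of processing or arrays, with changes of -2.33 to -1.96, -1.56 to -1.43, -1.03 to -0.88 and -0.74 to -0.69. Sostdc1, Sfrp1 and Frzb passed under all settings that could be run except the deposited table of fold changes, where their adjusted p was 0.153, 0.0904 and 0.0512 (limma). Sfrp2 passed under none of the 15 and had a negative mean under each, but its mean was 0.06 on the arrays with treated RNA in green taken alone.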

How the data were processed

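Total RNA of treated and control ureter pools was labelled and hybridised to 4 Agilent mouse arrays with both dye orders. The deposited scanner files hold mean and background intensity values per spot as made by the authors with Agilent Feature Extraction 10.7.3.1, with processed intensity values corrected for background and dye. The log10 column that was deposited with them, red over green, was compared with the processed red and green values of the same array. That comparison cannot show which channel was treated, which was taken from the dye given for each sample. A further table deposited by the authors holds a score per feature, a signed fold change of IWP-2 over control, whose centring is not given in the sources used here, and served as an alternative. It holds no p-values. Its values appear coarse, since the fit on them gave Dkk1 and Sfrp2 the same mean of -0.10 and adjusted p of 0.147 (limma). Over features with a mean processed intensity above 100, its values correlated with the processed ratios at r of 0.988 to 0.992 per array.

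Here, intensities were corrected with normexp (offset 50) and normalised within arrays by loess (span 0.3) in limma 3.58.1 under R 4.3.3. The offset makes the ratios of dim features smaller in size, so they do not compare directly with those of bright ones. The mean of Sostdc1 was -0.60, against -0.67 with an offset of 10 and -0.72 with processed signals. That of the brighter Dkk2 was -1.50, -1.51 and -1.50. Control and outlier spots were left out and the 4 spots of a feature averaged. A feature was tested if more than a share of 0.5 of its spots was well above background in all 4 control or all 4 treated channels, and the brightest feature stood for a gene. The log2 ratios were fitted with lmFit and eBayes with a dye term, with Benjamini-Hochberg adjustment over all genes (threshold 0.05, two-sided). Levels are processed intensities, and levels of different features are not comparable. Arrays have no read depth, so their number limits the precision. The fit was tested on simulated data.

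The genes of the set and of the other lists were chosen with earlier results of these data known. Genes were named by list: all antagonists, all further inhibitors tested, and up to 4 called genes in each direction of every other list. A further list of cell type markers is not reported here. No values from any other column or sample were used, and the alternatives tried are given in the closing section. Motif shares were counted in RefSeq promoter windows of GRCm38.p6, while feature positions are in mm9 per the file headers.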

Additional observations from a re-analysis of the deposited data

Results flagged for a closer look

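Each of the 10 antagonists and 65 other pathway genes was checked for an array that stood apart from the other 3, and none did by Dixon's test at the 95% level, where chance alone would give about 4 of the 75.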

How the results depend on the processing

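Direction and call held for Wif1, Dkk2, Dkk3 and Notum under each of 15 other settings and the direction in each dye order alone. Sfrp2 kept both under the 15, but its mean was -0.23 on the treated-red arrays and 0.06 on the treated-green arrays alone, and that of Sfrp4 was 0.06 and -0.11. The count of antagonists lower with IWP-2 stayed within 1.5 times the value reported under all of them, and the count of antagonists higher went to 0 with the deposited table of fold changes, where 2050 of all genes were lower and 1833 higher. The count of further inhibitors that were higher went to 1 with processed signals, with the deposited table, with no dye term and with a mean processed signal over 100. Leaving out each array in turn gave 2177 to 2811 genes lower and 1 to 2 further inhibitors higher, and the change of Sfrp4 ran from -0.055 to 0.0026, changing sign without array 3. Dkk1 lost its call without each array in turn, with a normexp offset of 10, with processed signals, with the deposited table and with no dye term. Sostdc1 and Sfrp4 had no value with a mean processed signal over 100, being too dim. The cause of these differences was not tested. Slide or scan as a block was not run, since all arrays shared both. The ratio within each array already pairs a treated pool with a control pool, so no further paired analysis was run. Signal over background limits Sfrp4 and Sostdc1 most.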
